A study of Homo sapiens with 12 samples.

Results

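The insulin-like growth factor (IGF) binding proteins are the 7 genes IGFBP1 to IGFBP7 of the 58735 genes in the count and FPKM tables, found by their gene symbols. The family was chosen by measured values: IGFBP3 was already known from these libraries to be lower in ATG7 KO than in WT cells, with and without H2O2. The comparisons of ATG7 KO with WT cells are therefore given for the members as a description, with no test. Tests are kept to the H2O2 responses and their difference. The difference of the responses is formed from the same comparisons, so for IGFBP3 its p-value is not free of the choice. RNA was sequenced from HLE-B3, an established human lens epithelial cell line, in 12 libraries, with 3 biological replicates in each of 4 groups. WT and ATG7 KO cells were collected untreated (0 h) or after 12 h with 200 μM H2O2, and all groups grew in DMEM/F12 with fetal bovine serum. ATG7 is an enzyme of autophagosome formation, and the ATG7 KO cells were made by CRISPR editing and grown from single picked clones. The labels do not say which clone gave the libraries, so a property of 1 clone and an effect of losing ATG7 cannot be told apart. Untreated cells were collected at 0 h, so the effect of H2O2 and that of 12 h in culture cannot be told apart either.

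IGF binding proteins are secreted proteins that hold IGF1 and IGF2 outside the cell and control how much ligand reaches the type 1 IGF receptor. IGFBP3 is the main carrier in serum, IGFBP6 prefers IGF2, and IGFBP7 binds IGFs weakly and is a matrix-associated protein. Proteases such as PAPPA free the ligand by cutting the carriers, and several members also act on cells without IGF.

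Library totals ran from 15602183 to 17659496 reads on genes. ATG7 mRNA was not lower in the ATG7 KO libraries, at 3.55 ± 0.205 FPKM against 2.55 ± 0.313 in untreated WT cells (SD, n = 3), so it does not check the labels. Replicate 1 of the untreated ATG7 KO cells stood apart: its mean correlation with its own group was 0.974, against 0.991 within the other groups, and results that rest on it are given with and without it. Of the lens epithelium markers, GJA1 (23.7 to 51.8 FPKM) and SIX3 (1.85 to 3.21 FPKM) were measured above 1 FPKM on average. PAX6 ran from 0.505 to 1.35 FPKM and CRYAB from 0 to 1.98 FPKM. The rest of that list, CRYAA, FOXE3, CDH1, MAF, AQP1 and PROX1, were near 0. Of 6 lens fibre markers 1 averaged above 1 FPKM, CRYGS at 0.679 to 2.20 FPKM, and BFSP1 ran from 0.188 to 0.772 FPKM. Of 8 fibroblast or mesenchymal markers 7 were above 1 FPKM, led by COL1A1 at 239 to 645 FPKM, and none of the immune, endothelial and pigment cell markers averaged above 1 FPKM over the 12 libraries. LYZ of the immune list averaged 1.29 FPKM in untreated WT libraries, against 0.108 FPKM in the untreated ATG7 KO libraries, and its part in the results was not tested. All levels here are per bulk sample, in which fewer cells that express a gene and less RNA per cell cannot be told apart.

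The promoters of IGFBP3 and IGFBP4 are shown because these genes rose with H2O2 in both cell lines. The 250 bases before the RefSeq start site (build GRCh38.p14) are written 5′ to 3′ on the gene's strand, with matches to the searched motifs in capitals. The IGFBP3 window lies at chr7:45921273-45921522 on the minus strand and the IGFBP4 window at chr17:40443200-40443449 on the plus strand.
IGFBP3: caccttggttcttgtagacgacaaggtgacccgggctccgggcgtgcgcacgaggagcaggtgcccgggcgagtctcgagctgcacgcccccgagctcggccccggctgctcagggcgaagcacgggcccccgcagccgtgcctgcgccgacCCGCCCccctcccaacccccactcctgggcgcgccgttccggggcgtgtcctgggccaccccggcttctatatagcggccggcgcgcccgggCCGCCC
IGFBP4: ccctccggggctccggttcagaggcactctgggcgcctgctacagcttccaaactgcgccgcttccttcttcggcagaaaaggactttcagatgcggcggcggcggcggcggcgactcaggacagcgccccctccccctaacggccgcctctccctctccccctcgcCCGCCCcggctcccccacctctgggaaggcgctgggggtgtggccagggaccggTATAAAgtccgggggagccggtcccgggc
Both strands were searched for the TATA box TATAAA, the CCAAT box, the GC box GGGCGG, the AP-1 site TGANTCA, the cyclic AMP response element TGACGTCA, the antioxidant response element core TGACNNNGC and the E-box CACGTG, and no match overlapped another. The IGFBP3 window held the GC box at 2 places, both on the opposite strand, and the IGFBP4 window held it once on the opposite strand, as 42.6% of 35116 RefSeq promoter windows of the same length held it on either strand. A TATA box began 29 bases before the start site of IGFBP4, a motif held by 10.7% of all windows. The AP-1 site (6.57% of all windows), the antioxidant response element core (10.9%), the cyclic AMP response element (1.65%), the E-box (6.34%) and the CCAAT box (32%) matched neither window. GC content was 76% for IGFBP3 and 71.6% for IGFBP4, against a median of 58% over all windows. The start site RefSeq gives for IGFBP3 is 602 bp inside the 5′ end of the gene in the deposited table. Motif matches are a description of letters and not of binding.

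The members lie on 5 chromosomes of GRCh38, and 2 pairs are close neighbours. IGFBP1 (ENSG00000146678, chr7:45888357-45893668, plus strand) ends 18576 bp before IGFBP3 (chr7:45912245-45921874, minus strand). IGFBP2 (chr2:216632828-216664436, plus strand) and IGFBP5 (chr2:216672105-216695525, minus strand) end 7668 bp apart. IGFBP4 is at chr17:40443461-40457731, IGFBP6 at chr12:53097436-53102345 and IGFBP7 at chr4:57030773-57110385. In GENCODE 29 the longest coding transcripts have 4 or 5 exons and coding regions of 720 to 975 bases, from IGFBP6 to IGFBP2. IGFBP7 overlaps POLR2B by 396 bp on the other strand, and POLR2B had 2251 to 3502 reads per library. It also overlaps the antisense gene IGFBP7-AS1 by 624 bp, which had 2 to 6 reads. The strand setting of the read counting is not given in the sources used here, so reads of IGFBP7 and of these genes cannot be told apart within the overlaps.

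HLE-B3 cells expressed 4 of the 7 members. IGFBP3 and IGFBP7 were the abundant ones, IGFBP4 and IGFBP6 were measured at lower levels, and IGFBP1, IGFBP2 and IGFBP5 were at or near 0 reads, so that 4 of 7 passed the filter on low counts. IGFBP1, known for its regulation by insulin in liver, had 2 reads in replicate 3 of H2O2-treated WT cells and none in the other libraries. IGFBP2 had 1 read in replicate 1 of H2O2-treated WT cells, 1 in each of replicates 2 and 3 of H2O2-treated ATG7 KO cells, and none elsewhere. A floor of 3 reads per library corresponds to 0.098 to 0.118 FPKM for IGFBP1 and to 0.034 to 0.0409 FPKM for IGFBP2, for counting error only. IGFBP5, a member with high affinity for matrix, had 1, 1 and 2 reads in untreated WT cells and 6, 1 and 5 in H2O2-treated WT cells. In ATG7 KO cells it had no reads untreated and 0, 1 and 2 with H2O2, and no fold change is given at these depths.

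IGFBP3 was lower in ATG7 KO cells. In replicates 1 to 3 it was at 217, 207 and 222 FPKM in untreated WT cells and 15.2, 14.5 and 15.7 FPKM in untreated ATG7 KO cells. With H2O2 it was at 269, 272 and 280 FPKM in WT cells and 31.5, 31.9 and 33.2 FPKM in ATG7 KO cells. All WT libraries were above all ATG7 KO libraries, and the 4 groups did not overlap with one another. The log2 difference of ATG7 KO from WT cells was -3.83 (SE 0.11) untreated, a 14.2-fold lower level, and -3.09 (SE 0.04) with H2O2, an 8.54-fold lower level. By this difference IGFBP3 was 18th from the lowest of 12497 genes with FPKM above 1 untreated, and 64th of 12598 with H2O2. Its place by FPKM among all genes was 84 in untreated and 83 in H2O2-treated WT cells, and 3244 and 1442 in ATG7 KO cells. Within the family it was the most abundant member in WT cells, the 4th in untreated ATG7 KO cells and the 3rd in H2O2-treated ATG7 KO cells. Leaving out replicate 1 of the untreated ATG7 KO cells, or any other setting tried, kept the untreated difference between -3.86 and -3.75.

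**Figure D1:**
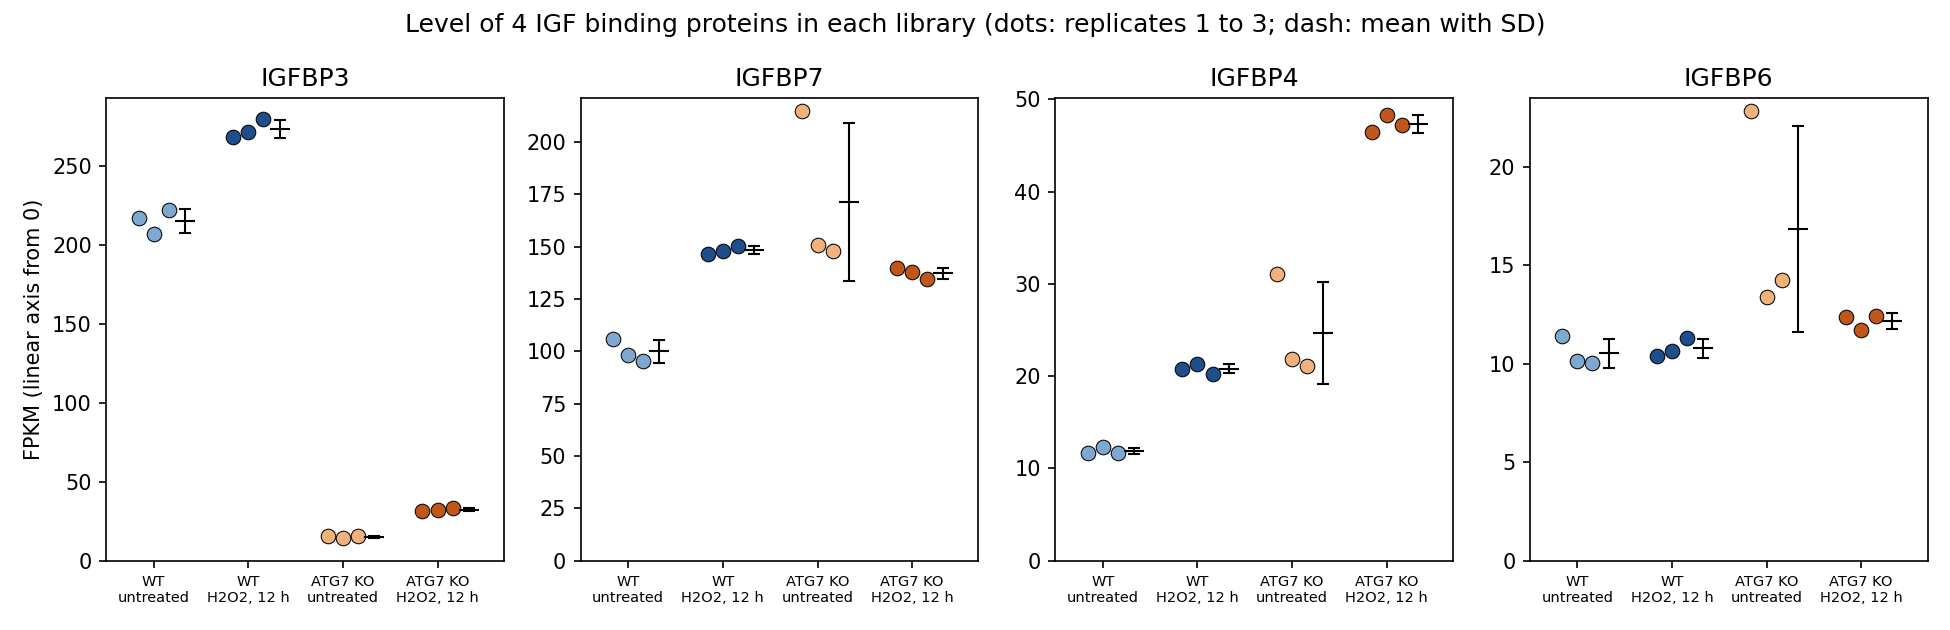
FPKM (linear axis from 0) of IGFBP3, IGFBP7, IGFBP4 and IGFBP6 in each of the 12 libraries, with dots for replicates and a dash with bars for the group mean and SD (n = 3). IGFBP3 lies at 207 FPKM or above in all WT libraries and at 33.2 FPKM or below in all ATG7 KO libraries, and replicate 1 of untreated ATG7 KO cells is the highest dot of its group for IGFBP7, IGFBP4 and IGFBP6.

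The remaining expressed members were not lower in untreated ATG7 KO cells. IGFBP4, an inhibitory carrier that PAPPA cuts, was at 11.7, 12.3 and 11.7 FPKM in untreated WT cells and 31.1, 21.8 and 21.1 FPKM in untreated ATG7 KO cells. With H2O2 it was at 20.8, 21.3 and 20.3 FPKM in WT cells and 46.4, 48.3 and 47.2 FPKM in ATG7 KO cells. The ATG7 KO libraries were higher in both states without overlap, with log2 differences of 1.05 (SE 0.16) untreated and 1.18 (SE 0.05) with H2O2. Without replicate 1 of the untreated ATG7 KO cells the first of these was 0.86. Counting members whose groups did not overlap and whose log2 difference was beyond 1, IGFBP4 was the 1 higher and IGFBP3 the 1 lower member in each state. Of all genes tested, 5.16% were higher and 3.89% lower by this rule untreated, and 4.93% and 9.21% with H2O2. The family was chosen on these contrasts, so nothing is read from the counts.

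IGFBP7 and IGFBP6 differed less between the lines. IGFBP7 was at 106, 98.3 and 95.4 FPKM in untreated WT cells and 215, 151 and 148 FPKM in untreated ATG7 KO cells, and with H2O2 at 146, 148 and 150 FPKM in WT and 140, 138 and 134.5 FPKM in ATG7 KO cells. The untreated ATG7 KO libraries were above the WT ones by 0.77 on the log2 scale (SE 0.16), and with H2O2 they were below them by a log2 difference of -0.12 (SE 0.04), without overlap in either state, although a gene length correction turned the latter to 0.058. IGFBP6 was at 11.4, 10.1 and 10.0 FPKM in untreated WT cells and 22.8, 13.4 and 14.2 FPKM in untreated ATG7 KO cells. With H2O2 it was at 10.4, 10.6 and 11.3 FPKM in WT cells and 12.4, 11.7 and 12.4 FPKM in ATG7 KO cells. The log2 differences of IGFBP6 were 0.67 (SE 0.21) and 0.17 (SE 0.10), again without overlap of the groups. The share of all genes without overlap at any size of difference is not given here, so nothing is read from it. Replicate 1 of the untreated ATG7 KO cells was the highest library for both genes, and without it the untreated differences were 0.59 for IGFBP7 and 0.40 for IGFBP6.

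The make-up of the family mRNA also differed between the lines. The FPKM values of all members summed to 338 ± 9.23 in untreated and 453 ± 7.90 in H2O2-treated WT cells, and to 228 ± 48.7 and 229 ± 1.43 in ATG7 KO cells (SD, n = 3). IGFBP3 was the largest part of the sum in WT cells, at 63.8% untreated and 60.3% with H2O2, and IGFBP7 followed with 29.6% and 32.7%. In ATG7 KO cells IGFBP7 was the largest part, at 75.1% and 60.0%, while IGFBP3 made up 6.82% and 14.1%. IGFBP4 made up 3.52% of the sum in untreated and 4.58% in H2O2-treated WT cells, against 10.8% and 20.7% in ATG7 KO cells, and IGFBP6 stayed between 2.38% and 7.29% in the group means. Per library the ratio of IGFBP3 to IGFBP7 ran from 1.83 to 2.33 over all WT libraries and from 0.0708 to 0.247 over all ATG7 KO libraries. These shares rest in part on the genotype difference that chose the family and are a description.

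**Figure D2:**
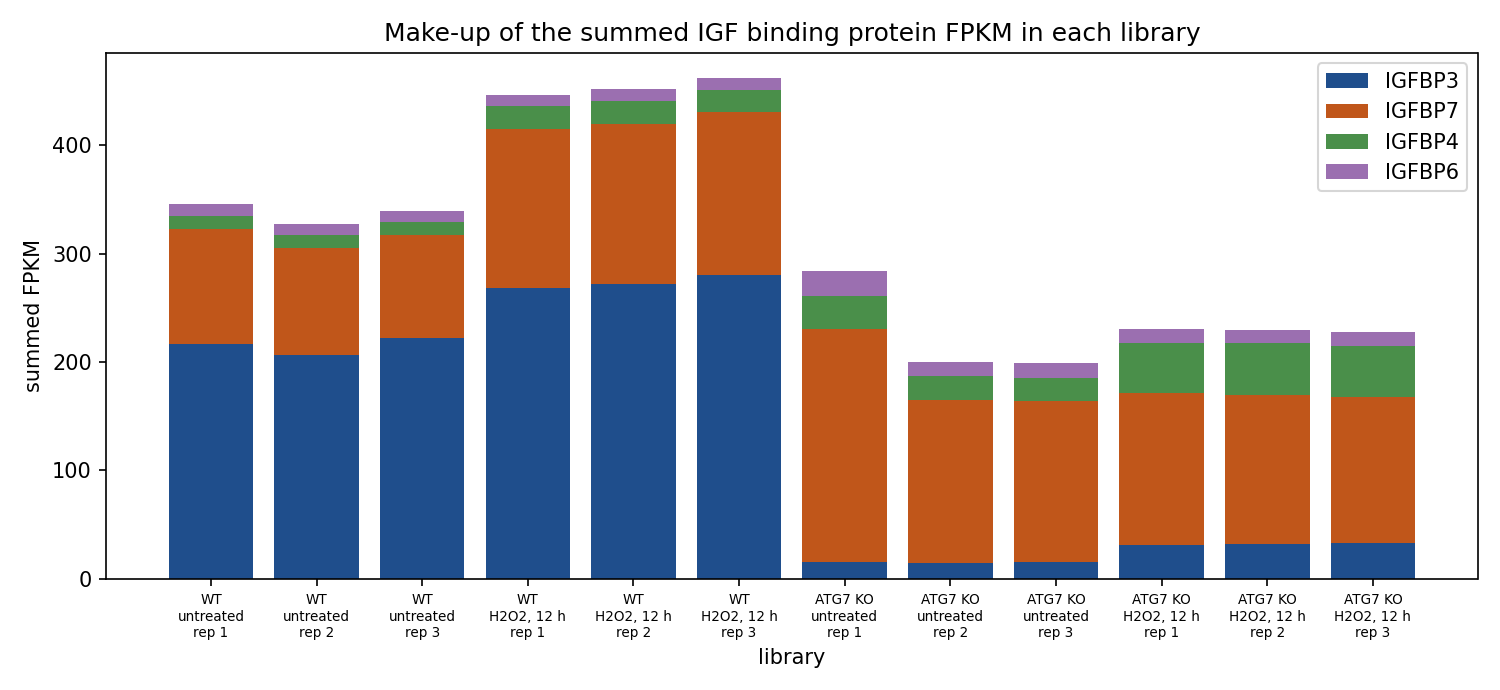
Summed FPKM of IGFBP3, IGFBP7, IGFBP4 and IGFBP6 in each library, stacked by gene. IGFBP3 is the largest block in every WT library and IGFBP7 in every ATG7 KO library, and replicate 1 of untreated ATG7 KO cells has the highest sum of its line at 284 FPKM.

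With H2O2, 3 of the 4 tested members rose in WT cells and none fell, where 30.9% of all genes tested rose and 30.1% fell. A gene was said to rise or fall when edgeR's quasi-likelihood test gave it a Benjamini-Hochberg adjusted p under 0.01. IGFBP4 rose by 0.80 on the log2 scale (SE 0.07, edgeR adjusted p = 2.51e-14), from 11.9 ± 0.363 to 20.8 ± 0.495 FPKM. IGFBP7 rose by 0.57 (SE 0.04, edgeR adjusted p = 1.61e-15), from 99.9 ± 5.49 to 148 ± 1.95 FPKM, and IGFBP3 by 0.34 (SE 0.04, edgeR adjusted p = 1.45e-10), from 215 ± 7.73 to 273 ± 5.79 FPKM. For each of these 3 genes every treated library was above every untreated one. The share of all genes set apart in this way is not given here, so nothing is read from such separation in either line. IGFBP6 had a log2 difference of 0.03 (SE 0.10, edgeR adjusted p = 0.808), with overlapping groups at 10.5 ± 0.749 and 10.8 ± 0.486 FPKM, and its sign changed with the setting. All of these differences were under 1 on the log2 scale, and their median over the 4 genes was 0.45, against -0.01 over all genes tested.

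In ATG7 KO cells 2 of the 4 tested members rose and none fell, where 13.6% of all genes rose and 12.4% fell. IGFBP3 rose by 1.08 on the log2 scale (SE 0.08, edgeR adjusted p = 0.000114), from 15.1 ± 0.592 to 32.2 ± 0.879 FPKM, with the treated libraries all above the untreated ones. Its highest treated ATG7 KO library, at 33.2 FPKM, was still below the lowest WT library, at 207 FPKM. IGFBP4 rose by 0.94 (SE 0.15, edgeR adjusted p = 0.00298), from 24.7 ± 5.57 to 47.3 ± 0.943 FPKM. When single libraries were left out, the adjusted p of IGFBP4 reached 0.0178 and the gene missed the threshold in 5 of these fits, while without replicate 1 of the untreated cells it passed. IGFBP7 (-0.32, SE 0.15, edgeR adjusted p = 0.133) and IGFBP6 (-0.47, SE 0.21, edgeR adjusted p = 0.108) did not pass, with 171 ± 37.9 and 137 ± 2.63 FPKM for IGFBP7 and 16.8 ± 5.23 and 12.2 ± 0.393 FPKM for IGFBP6. Without replicate 1 of the untreated cells IGFBP7 fell by 0.13 on the log2 scale, which passed (edgeR adjusted p = 0.000361), and IGFBP6 was at -0.20 (edgeR adjusted p = 0.0735). The comparisons of the 2 lines with and without H2O2 share libraries with these responses, so the values of each stand side by side.

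The difference between the responses of the lines, tested as an interaction over all 12 libraries, passed for IGFBP3 and IGFBP7 in opposite directions. That is 1 of 4 tested members higher and 1 lower in ATG7 KO than in WT cells, where 7.02% and 7.01% of all genes were. IGFBP3 responded more in ATG7 KO cells, by 0.74 on the log2 scale (SE 0.10, edgeR adjusted p = 0.000252). The family was chosen through IGFBP3 on the comparisons of the lines that form this difference, so that p-value is not free of the choice. IGFBP7 responded less, with a log2 difference of -0.89 (SE 0.17, edgeR adjusted p = 0.00235) between a rise of 0.57 in WT cells and a value of -0.32 in ATG7 KO cells. Without replicate 1 of the untreated ATG7 KO cells the latter value was -0.13. Over 21 other fits these differences ranged from 0.70 to 0.78 for IGFBP3 and from -0.97 to -0.55 for IGFBP7, and both passed in 21 of 21 at the adjusted p threshold, but neither is beyond 1 on the log2 scale. For IGFBP4 the difference was 0.14 (SE 0.17, edgeR adjusted p = 0.562), and for IGFBP6 it was -0.50 (SE 0.24, edgeR adjusted p = 0.127). Without replicate 1 of the untreated ATG7 KO cells the IGFBP4 difference was 0.34 and passed (edgeR adjusted p = 0.000753), as it did with a gene length correction (0.45, edgeR adjusted p = 0.00948), and the IGFBP6 difference was -0.21 (edgeR adjusted p = 0.239).

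**Figure D3:**
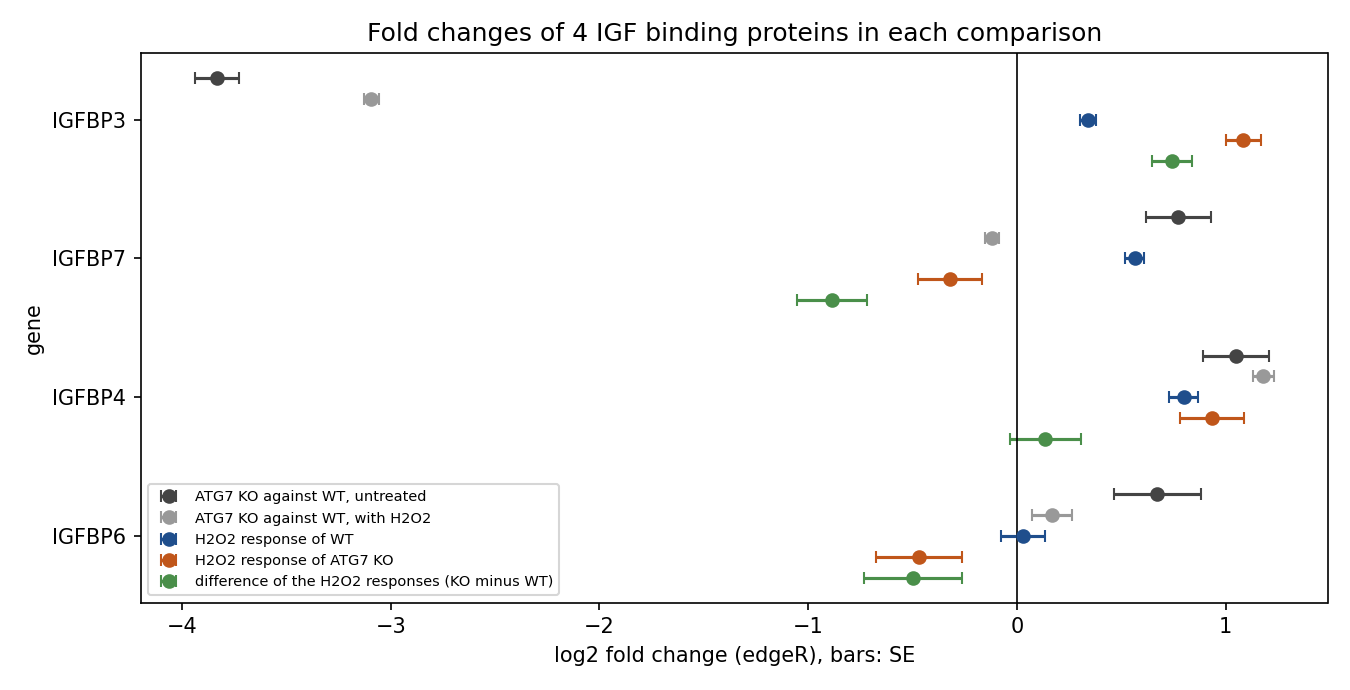
Log2 fold changes (edgeR) with SE bars for IGFBP3, IGFBP7, IGFBP4 and IGFBP6 in each of the 5 comparisons. IGFBP3 is at -3.83 and -3.09 between the lines but above 0 in both H2O2 responses, and the difference of the responses is 0.74 for IGFBP3 and -0.89 for IGFBP7.

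Other genes of the IGF system were taken from lists of 59 genes: ligands, receptors, IGFBP proteases and their inhibitors, binding partners, IGF2 mRNA binding proteins, receptor substrates and adaptors, and the PI3K and AKT branch. The ligands themselves were hardly read: INS had no read, IGF1 had 1 read over all libraries and IGF2 had 0 to 3 reads per library. The receptors were expressed, with IGF1R, the signalling receptor for both IGFs, at 15.2 ± 0.0963 and 17.0 ± 0.882 FPKM in untreated and H2O2-treated WT cells and at 13.1 ± 3.89 and 28.2 ± 0.379 FPKM in ATG7 KO cells. Replicate 1 of the untreated ATG7 KO cells was low for IGF1R at 8.59 FPKM. IGF1R rose by 0.16 on the log2 scale in WT cells (SE 0.04, edgeR adjusted p = 0.00207) and by 1.10 in ATG7 KO cells (SE 0.22, edgeR adjusted p = 0.00728), or by 0.87 without that replicate. The insulin receptor INSR rose by 0.31 in WT cells (SE 0.06, edgeR adjusted p = 6.10e-06). In ATG7 KO cells it rose by 1.54 (SE 0.20, edgeR adjusted p = 0.00106), or by 1.34 without that replicate. Both receptors responded more in ATG7 KO cells, by 0.95 for IGF1R (edgeR adjusted p = 0.00980) and by 1.24 for INSR (edgeR adjusted p = 0.00113). Without that replicate these differences were 0.72 (edgeR adjusted p = 2.06e-19) and 1.04 (edgeR adjusted p = 2.01e-19). The difference of IGF1R passed in 6 of 21 other fits and that of INSR in 21 of 21. The rise of IGF1R passed in 8 of 16 other settings in WT cells and in 11 of 16 in ATG7 KO cells. IGF2R, which clears IGF2, fell by 0.66 in WT cells (SE 0.04, edgeR adjusted p = 2.45e-19) and had a log2 difference of 0.18 in ATG7 KO cells (edgeR adjusted p = 0.686). Without replicate 1 of the untreated ATG7 KO cells, which had 14.1 FPKM of IGF2R against 34.1 and 35.8 in the other two, that value turned to -0.15 and passed (edgeR adjusted p = 8.26e-06).

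With H2O2 in WT cells, 19 of 52 tested genes of the lists rose and 23 fell, where 30.9% of all genes rose and 30.1% fell, and the median was -0.08 against -0.01 over all genes. Among those with a mean FPKM above 1 in at least 1 group, ADAMTS1 (2.93, SE 0.05), a secreted protease, rose most. IRS2 (1.61, SE 0.06), a substrate of the insulin and IGF1 receptors, and PIK3R1 (1.29, SE 0.11), a regulatory subunit of PI3K, followed. The largest falls were those of LRP1 (-1.52, SE 0.05), a scavenger receptor that binds IGFBP3, PAPPA (-1.05, SE 0.09), the protease of IGFBP4, and SOS1 (-1.05, SE 0.06), an exchange factor for Ras. In ATG7 KO cells 15 of 53 rose and 3 fell, where 13.6% and 12.4% of all genes did, with a median of 0.18 against -0.03 over all genes. ADAMTS1 (3.31, SE 0.12), IRS2 (1.64, SE 0.11) and INSR led the rises at FPKM above 1. The 3 that fell with replicate 1 of the untreated cells kept included FOXO4 (-1.65, SE 0.16), a transcription factor inhibited by AKT. The others were HTRA1 (-0.82, SE 0.16) and MMP2 (-0.64, SE 0.11), both extracellular proteases. Below 1 FPKM, the insulin receptor-related INSRR also rose, by 3.34 in WT cells (SE 0.62) and 3.19 in ATG7 KO cells (SE 0.46). Without replicate 1 of the untreated ATG7 KO cells 45 of the genes passed in place of 18, split nearly evenly between rises and falls. The surplus of rises over falls in ATG7 KO cells was therefore not seen without that library. LRP1, for example, went from -0.48 (edgeR adjusted p = 0.327) to -0.83 and passed.

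The difference of the responses passed for 8 genes of the lists that were higher in ATG7 KO cells and 2 that were lower, of 53, where 7.02% and 7.01% of all genes passed, with a median of 0.27 against -0.03 over all genes. Besides INSR, SOS1 was among the highest at FPKM above 1 (1.16, SE 0.21, edgeR adjusted p = 0.00190). The 2 lower genes were STC2 (-0.92, SE 0.14, edgeR adjusted p = 0.000802), a secreted inhibitor of PAPPA, and RHEB (-0.73, SE 0.18, edgeR adjusted p = 0.00939), an activator of mTORC1. The difference of RHEB passed in 10 of 21 other settings, and without replicate 1 of the untreated ATG7 KO cells it was -0.51 (edgeR adjusted p = 2.38e-11). Without replicate 1 of the untreated ATG7 KO cells 29 of the genes passed in place of 10, with 21 higher and 8 lower.

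**Figure D4:**
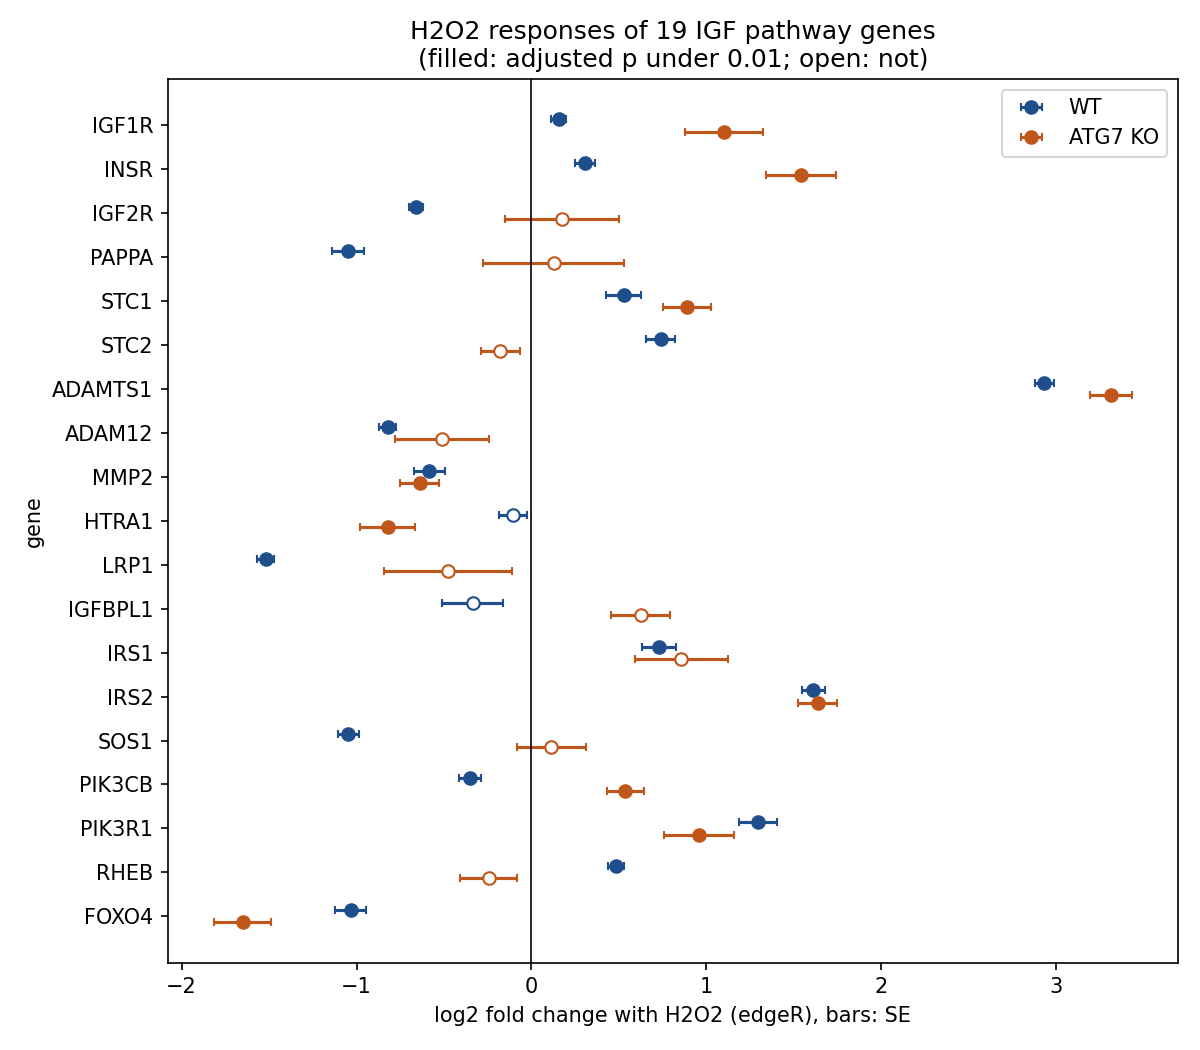
Log2 fold changes with H2O2 (edgeR, SE bars) of named IGF system genes in WT and ATG7 KO cells, filled where the adjusted p was under 0.01. ADAMTS1 and IRS2 rose in both lines, and IGF1R and INSR lie further right in ATG7 KO cells, at 1.10 and 1.54.

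Between the untreated lines, 3 of 52 tested genes of the lists were higher in ATG7 KO cells and 5 lower, where 4.42% and 3.28% of all genes were. STC1, the other secreted inhibitor of PAPPA, was higher (1.92, SE 0.15, edgeR adjusted p = 0.000340), as was MMP2 (1.17, SE 0.12, edgeR adjusted p = 0.00110). ADAMTS1 (-1.32, SE 0.11, edgeR adjusted p = 0.000515), the IGFBP-like protein IGFBPL1 (-0.99, SE 0.16, edgeR adjusted p = 0.00653) and PIK3CB (-0.72, SE 0.12, edgeR adjusted p = 0.00648), a catalytic subunit of PI3K, were lower. The receptors did not pass, with log2 differences of -0.22 for IGF1R, -1.03 for INSR and -0.19 for IGF2R, and each of these moved when replicate 1 of the untreated ATG7 KO cells was left out. Without it INSR passed at -0.82 (edgeR adjusted p = 6.01e-26), IGF2R turned to 0.14 and passed (edgeR adjusted p = 0.00440), and IGF1R turned to 0.015 and did not. IGFBPL1 and PIK3CB passed in 10 of 16 other settings each. Without that replicate they were at -1.06 (edgeR adjusted p = 9.12e-06) and -0.64 (edgeR adjusted p = 5.97e-17). Without that replicate 31 of the genes passed in place of 8, with 16 higher and 15 lower.

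With H2O2, 26 of 53 tested genes of the lists were higher in ATG7 KO cells and 14 lower, where 27.7% and 27.9% of all genes were. The genes that act on the binding proteins moved in both directions. STC1 was at 32.3 ± 2.26 FPKM against 6.61 ± 1.19 in WT cells (2.27, SE 0.11, edgeR adjusted p = 1.90e-07). PAPPA was at 7.37 ± 0.269 against 1.66 ± 0.319 FPKM (2.14, SE 0.09, edgeR adjusted p = 5.53e-14). Between the untreated lines PAPPA had a log2 difference of 0.97 and did not pass (edgeR adjusted p = 0.146). Without replicate 1 of the untreated ATG7 KO cells that difference was 1.35 and passed (edgeR adjusted p = 4.67e-64). FOXO4 (-1.15, SE 0.12), ADAMTS1 (-0.95, SE 0.05) and ADAM12 (-0.94, SE 0.05), a protease of IGFBP3 and IGFBP5, were lower. IRS1 (1.44, SE 0.07), a receptor substrate, IGF1R (0.72, SE 0.04, edgeR adjusted p = 4.49e-17), IGF2R (0.64, SE 0.03) and INSR (0.20, SE 0.05, edgeR adjusted p = 0.000960) were higher, although INSR passed in 12 of 16 other settings.

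Genes beside IGFBP3 on chromosome 7 are given as a description. The family was chosen through the difference of IGFBP3 between the lines, and nearly all genes differ less, so nothing is read from a smaller difference. Within 500 kb, 18 other genes are listed and 3 were tested, with log2 differences from -0.55 to -0.47 untreated and from -0.24 to 0.54 with H2O2. With H2O2, 1 of the 3 passed, and it was higher in ATG7 KO cells. Beside IGFBP4, 16 genes were tested untreated, and CSF3, a cytokine gene 425648 bp away, was higher in ATG7 KO cells untreated (6.25, SE 0.49, edgeR adjusted p = 0.000374) and with H2O2 (2.31, SE 0.06, edgeR adjusted p = 1.29e-22). Near IGFBP6, TNS2 (1.21, SE 0.09) and MAP3K12 (1.05, SE 0.08) were higher with H2O2 and ITGB7 was lower (-2.46, SE 0.56) at under 0.2 FPKM.

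Likeness of profile was measured as the root mean square difference of log2 CPM, centred on each gene's own mean, over all 12 libraries. The genes most like IGFBP3 were DUSP2 (0.32), TINCR (0.58) and FOLR3 (0.58), against a median of 1.82 over 12289 genes. The IGFBP3 profile mainly follows the difference between the lines that chose the family, so its list is a description. In untreated ATG7 KO cells TINCR and FOLR3 were near 0, at 0.0511 and 0.0810 FPKM. DUSP2, a phosphatase of MAP kinases, went from 5.51 ± 0.312 and 9.15 ± 1.69 FPKM in untreated and H2O2-treated WT cells to 0.419 ± 0.209 and 0.973 ± 0.188 FPKM in ATG7 KO cells. IGFBP4 was most like PKIA (0.11), RABGGTA (0.12) and PARP10 (0.13), where the median was 0.78. IGFBP7 was most like SRSF9 (0.036), SSR4 (0.076) and LTV1 (0.081), and IGFBP6 like ERP29 (0.070), UQCRC1 (0.078) and TPT1 (0.085), with medians of 0.46 and 0.45. The untreated ATG7 KO group had a wide SD for these genes as well, such as 48.7 ± 11.8 FPKM for SRSF9 and 61.8 ± 17.1 FPKM for ERP29, and the part of replicate 1 in the likeness was not tested.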

How the data were processed

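The authors made NEBNext libraries from total RNA of the HLE-B3 cells. The deposited counts are raw whole-number reads per gene. FPKM, also deposited, scales the same reads by gene length and library total, with a further factor per library of 0.949 to 1.017. The submitters' processing notes name HISAT2 2.0.5, featureCounts 1.5.0-p3 and GRCh38, while the strand setting is not given in the sources used here. Genes with few reads are limited by the count itself. Members and gene lists were chosen with earlier results of these data known.

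Counts were analysed with edgeR 4.0.16 (R 4.3.3): filterByExpr with a minimum count of 10, TMM scaling, and a robust quasi-likelihood fit of the 6 libraries of each comparison, or of all 12 for the interaction. P-values were adjusted over all genes tested by the Benjamini-Hochberg method and called under 0.01; they measure the spread between the sequenced samples. The procedure was tested on simulated data with the same spread setting for every gene and no library that stood apart. That test therefore does not cover the effect of replicate 1 of the untreated ATG7 KO cells. The thresholds of a log2 fold change beyond 1 and an FPKM above 1, a replicate block, DESeq2 1.42.0, limma 3.58.1 on log2(FPKM + 1) and log2(FPKM + 0.1), RLE and upper quartile scaling, other filters, a fit of all 12 libraries, a gene length correction and leaving out each library were the alternatives.

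The genes named were the 7 members, ATG7, the ligands and receptors, the 3 highest and 3 lowest passing genes of the lists with FPKM above 1 in each comparison, the 3 nearest profiles of each expressed member, passing neighbours within 500 kb with a log2 difference beyond 1 between the lines, and the leading markers. One of the genes this rule takes is not reported here. Replicate numbers did not pair the samples: deviations of same-numbered libraries from their group means had correlations from -0.07 to 0.098.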

Additional observations from a re-analysis of the deposited data

Results flagged for a closer look

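The H2O2 response differed between ATG7 KO and WT cells for 2 members by the interaction test. For IGFBP3 the response was larger in ATG7 KO cells by 0.74 on the log2 scale, and all treated libraries were above all untreated ones in each line. The family was chosen through IGFBP3 on the comparisons of the lines that form this difference, so its test is not free of the choice. For IGFBP7 the difference was -0.89, and all treated WT libraries were above the untreated ones. All treated ATG7 KO libraries were below the untreated ones, of which replicate 1 was the highest at 215 FPKM. Nothing is read from such separation, as its share over all genes is not given. The ATG7 KO response of IGFBP7 was -0.32 and did not pass (edgeR adjusted p = 0.133). Without replicate 1 of the untreated cells it was -0.13 and passed (edgeR adjusted p = 0.000361).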

How the results depend on the processing

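The settings moved counts of calls more than values of the members. The fold and FPKM thresholds lowered the counts to 0 of the members in the WT response and in the difference of the responses, and to 1 in the ATG7 KO response. Counts for the IGF system genes under these thresholds were 3 and 5 between the lines untreated and with H2O2, 7 in each response and 3 for the difference. A fit of all 12 libraries gave 18 untreated, 19 with H2O2 and 27 for the WT response, against 8, 40 and 42. Untreated, DESeq2 gave 14, the gene length correction 14 and the replicate block 3, and for the difference no filter on low counts gave 22 in place of 10. The replicate block changed no call of a member. Leaving out 1 library gave 2 to 31 calls untreated, 5 to 45 for the ATG7 KO response and 6 to 29 for the difference, the highest each time without replicate 1 of the untreated ATG7 KO cells, and 1 to 3 members in the ATG7 KO response, where 3 passed without that replicate and 1 without any other library. Members whose untreated groups lay apart by more than 1 on the log2 scale numbered 1 in place of 2 under the gene length correction, limma on log2(FPKM + 1) and without that replicate, and 3 without a filter on low counts, which lets IGFBP5 in. Signs turned for IGFBP6 in the WT response, with -0.18 under the gene length correction, -0.0096 without a filter and a range of -0.0166 to 0.074 without single libraries, 3 of them below 0, and for IGFBP7 between the lines with H2O2 under the gene length correction (0.058). The causes were not tested. Depth limits IGFBP1, IGFBP2 and IGFBP5, which had at most 6 reads per library.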
